A study of Drosophila melanogaster with 58 samples.

Results

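A set of 6 effector and receptor genes of differentiated glia was followed through gain and loss of gcm in Drosophila melanogaster embryos. They were chosen by gene symbol, as genes known from astrocyte-like, midline and surface glia: alrm, Gs2, wrapper, moody, Mdr65 and htl. Of the 7 genes listed, these 6 had a probe named for them, and Eaat1, a glutamate transporter of astrocyte-like glia, was not analysed here. The 6 genes were read by 7 of the 23808 probes of the array, on which 11663 genes were named. Mdr65 had 2 probes, and each of the other genes had 1.

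The transcription factor Gcm switches neural precursors of the fly embryo to the glial fate and turns on repo, which encodes the homeodomain factor of lateral glia. Lateral glia later divide into types. Astrocyte-like glia take up and convert neurotransmitters in the neuropil, surface glia seal the nervous system and form the blood-brain barrier, and wrapping and cortex glia ensheath axons and cell bodies. Midline glia are of separate origin and form without gcm. alrm encodes a leucine-rich repeat protein whose gene serves as an astrocyte marker, and Gs2 encodes the cytoplasmic glutamine synthetase that converts glutamate to glutamine. wrapper encodes an immunoglobulin-domain surface protein of midline glia, moody a G protein-coupled receptor needed for the barrier, and Mdr65 an ABC transporter of the barrier. htl (heartless) encodes an FGF receptor used in the mesoderm and in glia.

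In the gain-of-function experiment (GOF), embryos of the cross between the Gal4 line MZ1060 and the UAS-gcm stock B5446 were set against a pool of equal amounts of mRNA from both parental lines, so the control embryos carried the driver or the transgene but not both. The cells in which MZ1060 drives expression are not given in the sources used here. Its 33 arrays covered stages 9 to 16, with 5 arrays for stage 14 and 4 for the others. In the loss-of-function experiment (LOF), homozygous gcmN7-4 embryos, sorted because they lacked the GFP of the balancer chromosome, were set against OregonR embryos handled in the same manner. Its 25 arrays covered stages 10 to 14 and 16, with 5 arrays for stage 10 and 4 for the others, and LOF stages 9 and 15 were not analysed here. The balancer carried Kr-GFP at stages 10 to 13 and Ubi-GFP from stage 14 on. LOF stages 14 and 16 thus differed from the earlier ones in the balancer of the stock as well as in stage. These cannot be told apart in any comparison of late with early LOF stages below. Each array compared poly-A RNA of whole embryos of both kinds at one stage, in 2 colours, with the dyes swapped on some arrays of every stage. All values below are log2 ratios of perturbed over wild type embryos, after centring each array on its median, so that -1 is a 2-fold lower and 1 a 2-fold higher level. The ratios hold no levels, so the presence of the tissue could not be checked by the level of its markers, and in RNA of whole embryos fewer cells of a type and less RNA per cell cannot be told apart.

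An array measured between 10822 and 23253 probes, and 3 of the 58 arrays measured under 60% of them. gcm itself was higher on 31 of 33 GOF arrays, at 1.35 ± 0.10 (standard error, SE) on average over stages, with an adjusted p of 8.42e-15. At GOF stage 9 it stood at 0.13 ± 0.29 and did not pass (adjusted p 0.876), with 2 of 4 arrays higher. It was lower on 23 of 25 LOF arrays, at -0.95 ± 0.12 (adjusted p 1.03e-08). Of the 2 others, replicate 1 of LOF stage 16 read 0.27, against -2.40, -0.87 and -0.61 on the other arrays of that stage. It was kept, and as the only array there with the perturbed RNA in Cy3 it is required for testing LOF stage 16. Its correlations with those arrays were 0.16, 0.18 and 0.08. repo averaged 0.34 ± 0.07 in the GOF (adjusted p 2.02e-04) and 0.01 ± 0.08 in the LOF (adjusted p 0.949). Of 57 pairs of arrays of a stage with opposite dye orientation, 54 correlated positively across probes once turned to the same direction. The correlations were low, with a median of 0.12. Repeat spots within an array had a median rank correlation of 0.34 in the GOF and 0.38 in the LOF. Replicate 4 of LOF stage 12 stands apart: its gcm ratio was 0.74, against -1.22, -0.40 and -0.31 on the other arrays of that stage, and its rank correlation with replicate 1 was -0.15. Its orientation was kept as labelled, and without it no call of the 6 genes that could still be tested was lost or gained in the LOF average, the early LOF mean, the LOF late-minus-early difference, LOF stage 12 or the difference between the experiments. Genes of maternally supplied RNA were higher in the perturbed embryos of both experiments: the mean of the 13 measured genes of a maternal list was 0.85 over the GOF arrays (range 0.37 to 1.33) and 0.75 over the LOF arrays (range -0.07 to 1.64). Of this list, 7 of 12 tested genes rose in the GOF average and 7 of 11 in the LOF average (6 of 11 without the doubtful array), and 0 fell in either. Of all tested probes, 14.1% rose in the GOF average and 13.9% in the LOF average. In the LOF averages of the other lists below, leaving out that array changed no call.

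A probe counted as changed when its adjusted p in a linear model over all 58 arrays was under 0.05. Of the 47 tests of a gene at a GOF stage, 2 passed, for htl at stage 9 and moody at stage 13. Over all probes tested, the share that passed was 9.37% at stage 9, 4.35% at stage 10, 2.9% at stage 11, 2.06% at stage 12, 3.15% at stage 13, 1.58% at stage 14, 0.481% at stage 15 and 0.222% at stage 16. Of the 36 tests at an LOF stage, 5 passed, 3 for Gs2 and 2 for alrm. There the share over all probes was 5.41% at stage 10, 8.67% at stage 11, 7.32% at stage 12, 9.6% at stage 13, 2.55% at stage 14 and 3.58% at stage 16. At GOF stages 15 and 16 few probes passed, and 7.74% and 6.07% of all probes had an unadjusted p under 0.05. Several genes named below were higher on every array of a late GOF stage without passing the threshold.

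alrm, the astrocyte marker, was the gene with the lowest ratio in the mutants, and it was lowest late in the time course. At LOF stage 16 its 4 arrays gave -4.51, -2.76, -4.66 and -4.89. At stage 14 they gave -2.03, -3.65, -4.17 and -3.54. All 8 of these arrays lay below the wild type by more than 4-fold. The dye-adjusted estimate was -4.06 ± 0.80 at stage 16 (16.7-fold lower, adjusted p 0.00123) and -3.35 ± 0.78 at stage 14 (10.2-fold lower, adjusted p 0.0124). At stage 13 the 3 arrays that measured it gave -0.25, -1.74 and -4.30, all lower, with an adjusted p of 0.134. At stages 10 to 12 the 11 measured arrays ran from -3.12 to 1.55, 4 higher and 7 lower. The early arrays thus spread over both directions, while all 11 measured late arrays were lower.

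Over the late LOF stages alrm fell to -3.20 ± 0.48 (9.2-fold lower, adjusted p 3.82e-06), where 16.5% of all probes passed. Over the early stages it was -0.43 ± 0.49 (adjusted p 0.655, 95% interval -1.42 to 0.55). The late-minus-early difference was -2.77 ± 0.68 with an adjusted p of 0.00882, where 5.56% of all probes passed. In this difference stage cannot be told apart from the balancer of the stock, which changed at stage 14. The LOF average fell by 1.82 on the log2 scale (SE 0.34, lower on 18 of 22 measured arrays, adjusted p 5.46e-05). Without the doubtful array of stage 12 the average was -1.91, the early mean -0.62 and the late-minus-early difference -2.57, and none of them was then tested because 2 arrays of that stage measured alrm. In a fit of the arrays of stages 13 to 16 alone, added after the data were seen, stage 13 also passed at -2.30 (adjusted p 0.033), where 8.44% of probes passed, and the late LOF mean was -3.18 (adjusted p 2.27e-06), where 15.3% passed. The call at stage 14 was lost without replicate 2 or replicate 4 of that stage (highest adjusted p 0.0759), without centring (-2.89, adjusted p 0.0641), with LOF arrays alone (adjusted p 0.0595) and with the replicate number as a block (-3.21, adjusted p 0.0627). The call at stage 16 was lost with the block (-3.85, adjusted p 0.0686), while the late mean kept its call there (-3.00, adjusted p 0.00482) and without centring (-2.62, adjusted p 1.98e-04). Of the 12 late LOF arrays, 5 measured both of alrm's repeat spots, 6 measured 1 and 1 measured none, and where both were measured their median gap was 0.87.

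With ectopic gcm, alrm was higher at the end of the course. Its 4 arrays at GOF stage 16 gave 1.31, 1.71, 1.59 and 1.51, and at stage 15 they gave 1.06, 0.77, 2.10 and 0.95. All 8 arrays were higher than the control, and at stage 16 they lay within an SD of 0.17. The single-stage estimates, 1.53 ± 0.78 at stage 16 and 1.22 ± 0.78 at stage 15, did not pass (adjusted p 0.857 and 0.861). The test used 1 spread per probe over all stages, and the SD of alrm within a stage reached 2.70 at GOF stage 12. In the fit of the arrays of stages 13 to 16 alone, stages 16 and 15 did not pass either (adjusted p 0.555 and 0.64). At stage 14 the values ran from -0.27 to 2.06 and at stage 13 from -0.45 to 3.80. The mean over GOF stages 13 to 16 was 1.07 ± 0.38 with an adjusted p of 0.0847. In the fit of the late arrays alone it was 1.09 ± 0.28 and passed (adjusted p 0.0164), where 6.7% of probes passed. It also passed with the arrays scaled to one spread (1.25, adjusted p 0.0355) and with exact zeros kept as ratios (0.94, adjusted p 0.042). At stages 9 to 12 the arrays ran from -5.17 to 2.83, and the GOF average was not tested because no array of stage 12 with the perturbed RNA in Cy5 measured alrm. The late difference between the experiments was 4.22 ± 0.65 (18.7-fold, adjusted p 2.32e-05), and it stayed between 3.87 and 4.40 with any one array left out.

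Gs2, the glutamine synthetase, had the opposite time course in the mutants. At LOF stage 10 its 5 arrays gave -1.59, -2.36, -2.22, -1.89 and -1.69. At stage 11 the 4 arrays gave -1.86, -1.73, -1.37 and -1.60. All 9 arrays were at least 2-fold lower than the wild type. The estimates were -1.93 ± 0.21 at stage 10 (3.81-fold lower, adjusted p 1.01e-08) and -1.69 ± 0.24 at stage 11 (3.23-fold lower, adjusted p 2.43e-06). Both repeat spots were measured on all 25 LOF arrays, and their median gap was 0.31 in the early and 0.19 in the late stages.

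From stage 12 to stage 14 the mutant ratios of Gs2 lay closer to 0, and at stage 16 above it. The stage 12 arrays gave -0.54, -0.80, -0.20 and 0.24, the stage 13 arrays 1.10, -0.43, 0.09 and 0.27, and the stage 14 arrays -0.68, -0.31, -0.79 and -0.34. Stages 12 and 13 held both signs, and all 4 arrays of stage 14 were lower, at -0.53 ± 0.24 (adjusted p 0.271). At stage 16 all 4 arrays were higher, at 0.80, 0.79, 0.69 and 1.31, with an estimate of 0.85 ± 0.24 (1.8-fold, adjusted p 0.0359). That call was lost without replicate 2 or 4 of stage 16 (highest adjusted p 0.169), without centring (1.26, adjusted p 0.114), with LOF arrays alone (adjusted p 0.0859) and with the replicate block (adjusted p 0.259). The early LOF mean fell to -1.31 ± 0.13 (adjusted p 1.74e-10), where 15.9% of all probes passed, and the late mean was 0.19 ± 0.14 (adjusted p 0.411). Without centring the late mean was 0.63 and passed (adjusted p 0.0475). The late-minus-early difference was 1.51 ± 0.19 (adjusted p 6.89e-07). Without the doubtful array of stage 12 it was 1.56 (adjusted p 4.55e-07), and the early mean was -1.37 (adjusted p 2.43e-10). The LOF average was -0.56 ± 0.10 (lower on 17 of 25 arrays, adjusted p 1.01e-05), a mean over stages that differed in sign. It was -0.59 without the doubtful array (adjusted p 5.5e-06), and without centring it was -0.41 and did not pass (adjusted p 0.0828).

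With ectopic gcm the ratios of Gs2 were closer to 0. All 8 arrays of stages 10 and 11 were lower, between -0.72 and -0.18. The estimates of -0.42 and -0.43 (SE 0.24 each) did not pass, with adjusted p-values of 0.464 and 0.459. From stage 12 to stage 15 the 17 arrays ran from -0.40 to 0.80. At stage 16 all 4 were higher, at 1.18, 0.45, 1.31 and 0.44, and the estimate of 0.84 ± 0.24 had an adjusted p of 0.164. It passed with the arrays scaled to one spread (1.05, adjusted p 0.00929), with array weights (0.83, adjusted p 0.00502) and on close spot pairs alone (1.00, adjusted p 4.28e-05). In both experiments Gs2 was thus lower on every array of stages 10 and 11 and higher on every array of stage 16. The GOF average was 0.00 ± 0.08 (adjusted p 0.986, 95% interval -0.16 to 0.17).

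**Figure D1:**
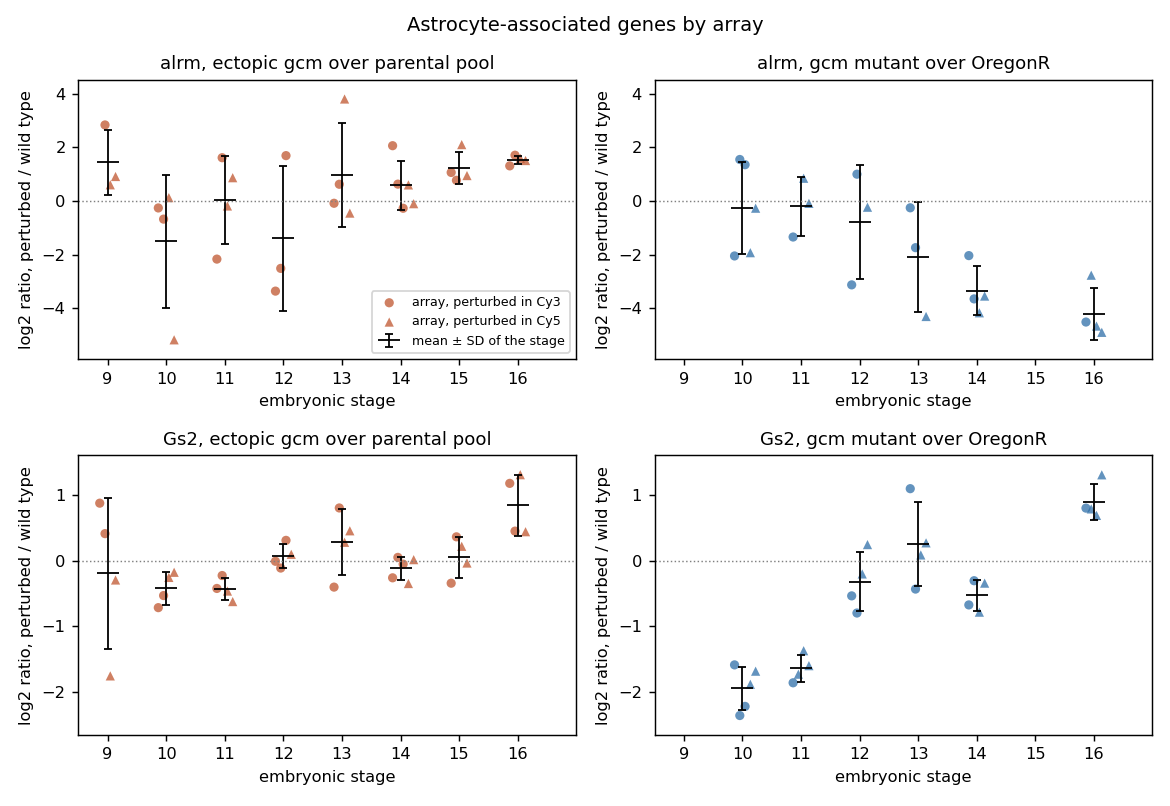
log2 ratio of perturbed over wild type embryos (vertical axis) against embryonic stage (horizontal axis) for alrm (top) and Gs2 (bottom) in the gain of function (left) and the loss of function (right), with 1 point per array shaped by dye orientation and the mean ± SD of each stage in black. In the mutants alrm goes from both signs at stage 10 to between -4.89 and -2.76 at stage 16, while Gs2 goes from between -2.36 and -1.59 at stage 10 to between 0.69 and 1.31 at stage 16.

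wrapper, the midline glial surface protein, was lower on 20 of the 24 LOF arrays that measured it. At LOF stage 14 the arrays gave -0.68, -0.75, -0.65 and -0.57, with an SD of 0.07. At stage 16 they gave -0.38, -1.33, -0.78 and -0.55. All arrays of stages 11, 12, 14 and 16 were lower, while stages 10 (-2.44 to 3.22) and 13 (-1.26 to 1.09) held both signs. No single stage passed, with the lowest adjusted p at 0.232 for stage 11. The LOF average was -0.49 ± 0.19 (1.41-fold lower) with an adjusted p of 0.0431. It lost the call on leaving out any one of 11 of 22 arrays tried, where its estimate ran from -0.65 to -0.44, and without the doubtful array of stage 12 it was -0.54 (adjusted p 0.0237). It also missed the threshold under 7 other alternatives, among them no centring (-0.37, adjusted p 0.296), LOF arrays alone (adjusted p 0.108) and the replicate block (-0.77, adjusted p 0.0524). The late mean was -0.50 ± 0.27 (adjusted p 0.222) and, in the fit of the late arrays alone, -0.51 ± 0.16 (adjusted p 0.034).

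With ectopic gcm, wrapper was higher on all 8 arrays of GOF stages 15 and 16, from 0.12 to 0.87. The estimates, 0.44 ± 0.46 at each stage, did not pass (adjusted p 1.0). Arrays of stages 9 to 12 ran from -1.94 to 1.98. The GOF average was 0.13 ± 0.16 (adjusted p 0.624, 95% interval -0.19 to 0.46). The difference between the experiments was 0.46 ± 0.26 and did not pass (adjusted p 0.254). The repeat spots of wrapper had a median gap of 0.62 in the early and 0.09 in the late GOF arrays.

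**Figure D2:**
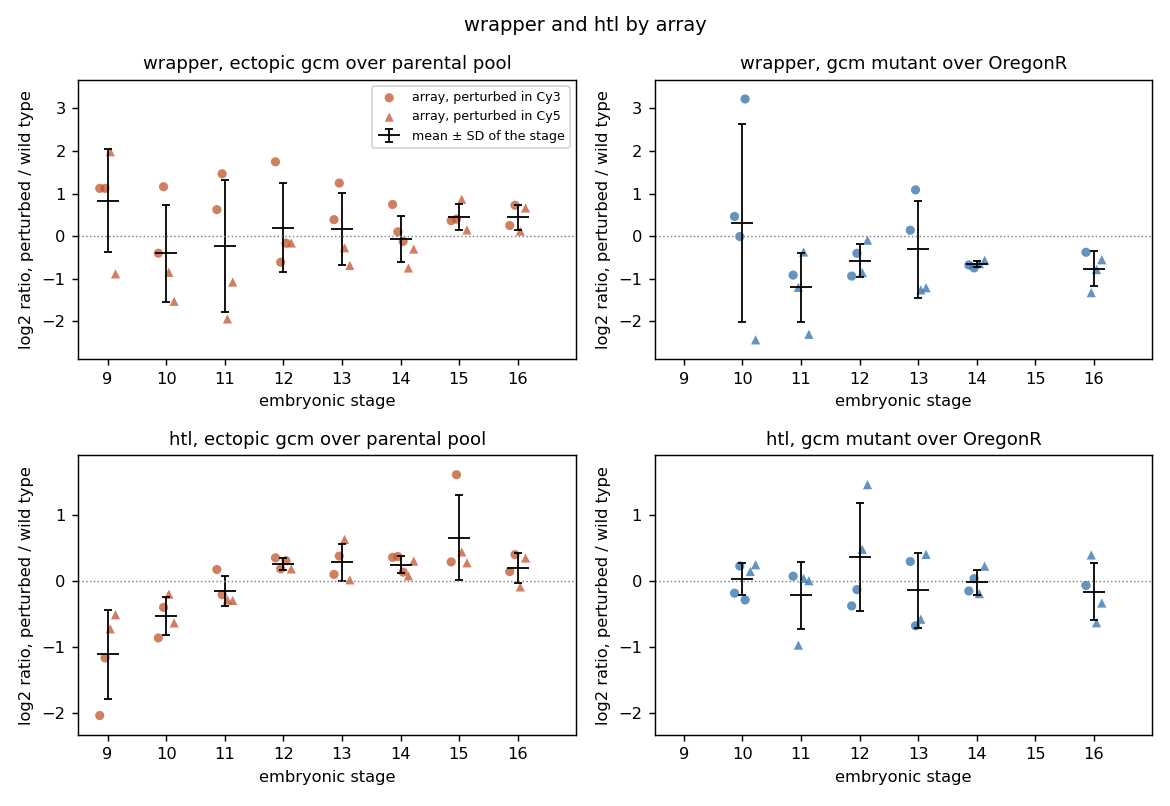
log2 ratio of perturbed over wild type embryos against embryonic stage for wrapper (top) and htl (bottom) in the gain of function (left) and the loss of function (right), with 1 point per array and the mean ± SD of each stage in black. wrapper lies below 0 on all arrays of loss-of-function stages 14 and 16, and htl goes from between -2.03 and -0.51 at gain-of-function stage 9 to mostly above 0 from stage 12 on.

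moody, the receptor of barrier-forming surface glia, was higher on every late array with ectopic gcm. At GOF stage 16 its arrays gave 0.92, 0.93, 0.98 and 1.01, an SD of 0.04. At stage 15 they gave 0.35, 0.84, 0.93 and 0.53, at stage 14 0.68, 0.56, 0.59, 0.20 and 0.06, and at stage 13 0.51, 0.73, 2.53 and 0.41. All 17 arrays of stages 13 to 16 were above 0. The mean of these stages was 0.78 ± 0.14 (1.71-fold, adjusted p 5.12e-05), where 7.52% of all probes passed. Without centring it was 0.77 and did not pass (adjusted p 0.0549). At stages 9 to 12 the 16 arrays ran from -1.40 to 0.79, with 9 higher, and the mean was 0.05 ± 0.14 (adjusted p 0.873).

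Of the single stages, stage 13 passed at 1.04 ± 0.28 (adjusted p 0.0239). That value rested on replicate 3, whose 2 repeat spots disagreed, at 4.79 and 0.26. Without that array the estimate was 0.57 (adjusted p 0.475). The call was also lost without centring (adjusted p 0.495), with zeros kept (adjusted p 0.0625), with the replicate block (adjusted p 0.115), with the maternal covariate (adjusted p 0.199) and with late arrays alone (adjusted p 0.0963). The GOF average of moody rose to 0.41 ± 0.10 (1.33-fold, higher on 26 of 33 arrays, adjusted p 7.86e-04). Among all probes 27.8% passed in the GOF average, 14.1% higher and 13.6% lower. Without centring, 1379 probes were higher and 475 lower, in place of 2090 and 2014. The average stayed between 0.35 and 0.46 with any one array left out, and it missed the threshold without centring (0.45, adjusted p 0.0516) and with the replicate block (0.31, adjusted p 0.191). With the array mean of the maternal list as a covariate it was 0.51 with an adjusted p of 0.192; that mean was above 0 on all 33 arrays, so the fitted value lies outside the measured range. The late-minus-early difference was 0.73 ± 0.19 (adjusted p 0.0436), where 1.36% of all probes passed, and this call was lost on leaving out any one of 21 of the 32 arrays tried (highest adjusted p 0.0937). Without centring it was 0.64 (adjusted p 0.997), and with zeros kept 0.72 (adjusted p 0.186).

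In the mutants moody was lower on all 5 arrays of stage 10, from -0.96 to -0.32, at -0.54 ± 0.25 (adjusted p 0.274). At LOF stage 14 all 4 arrays were lower, from -0.53 to -0.04, and at stage 16 3 of 4 were higher, from -0.05 to 0.54. Stage 13 held replicate 1 at 1.74 and the others between -0.94 and -0.37. The LOF average was -0.20 ± 0.11 (adjusted p 0.213, 95% interval -0.42 to 0.03), and it was also -0.20 without the doubtful array (adjusted p 0.192). Without replicate 1 of stage 13 it was -0.32 and passed (adjusted p 0.00872). On the LOF average, 27.6% of all probes passed, 13.9% higher and 13.8% lower, and alrm, Gs2 and wrapper did among the 6 genes. Without centring, 1634 probes were higher and 471 lower, in place of 2087 and 2066.

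Mdr65, the ABC transporter of the barrier, passed in no comparison on its better measured probe. The late GOF arrays were higher on 11 of 14 measured arrays, and at stage 16 they gave 0.98, 0.57, 1.98 and 0.48. The mean of GOF stages 13 to 16 was 0.95 ± 0.41 (adjusted p 0.194, 95% interval 0.12 to 1.77), against 0.78 for moody. At stage 12 all 4 arrays were lower in both experiments, from -1.97 to -0.58 in the GOF and from -2.92 to -0.50 in the LOF. The averages were 0.37 ± 0.28 in the GOF (adjusted p 0.402) and -0.43 ± 0.33 in the LOF (adjusted p 0.375), or -0.45 without the doubtful array (adjusted p 0.345). The second probe measured 42 arrays and went with the first at some stages and against it at others. It read higher on all 4 arrays of GOF stage 16, at 1.51, and lower on all 4 of GOF stage 12, at -1.47, as the first probe did. Over LOF stages 10 to 12 it was higher on all 10 measured arrays, at 1.66, against -0.51 for the first probe. At LOF stage 12 it stood at 2.10 on 2 arrays against -1.47, and at GOF stage 14 at -1.44 on 2 arrays against 1.27. Its late GOF mean was 0.26 and its GOF late-minus-early difference -0.04, against 0.95 and 1.16. Most of these values of the second probe were not tested for lack of arrays. The repeat spots of the first probe differed by medians of 1.1 to 2.73 between the early and late stages of the experiments, against 0.12 to 0.23 for htl, so a ratio of Mdr65 on a single array carries little precision.

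**Figure D3:**
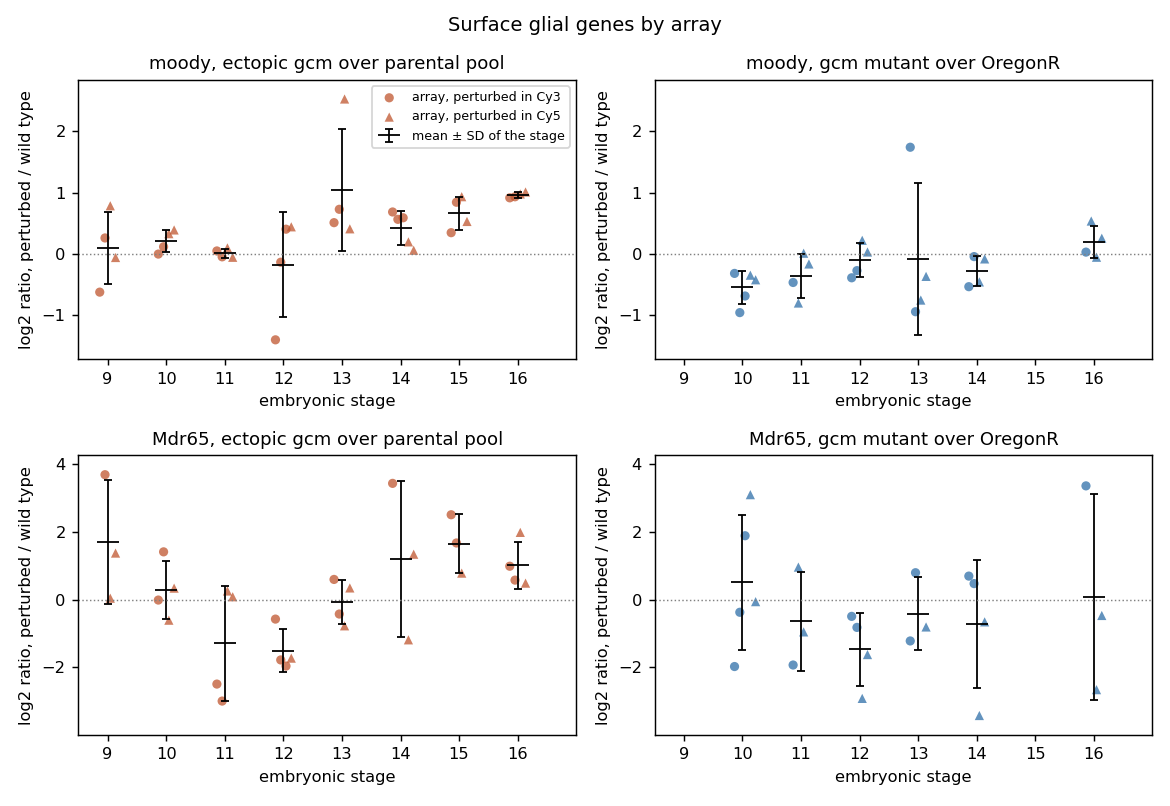
log2 ratio of perturbed over wild type embryos against embryonic stage for moody (top) and Mdr65 (bottom, better measured probe) in the gain of function (left) and the loss of function (right), with 1 point per array and the mean ± SD of each stage in black. moody lies above 0 on all 17 arrays of gain-of-function stages 13 to 16, and Mdr65 scatters over several log2 units at most stages.

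htl, the FGF receptor, was lower early and higher late with ectopic gcm. Its arrays at GOF stage 9 gave -2.03, -1.16, -0.72 and -0.51, and at stage 10 -0.86, -0.40, -0.20 and -0.63. All 8 arrays were lower. Stage 9 passed at -1.11 ± 0.23 (2.15-fold lower, adjusted p 0.00106), and stage 10 did not at -0.52 ± 0.23 (adjusted p 0.25). gcm itself was not detectably raised at GOF stage 9, at 0.13 ± 0.29 (adjusted p 0.876), and stood at 0.92 ± 0.29 at stage 10 (adjusted p 0.0548). For htl, stage 9 without replicate 1 stood at -0.78 (adjusted p 0.0753), and that array measured 50.4% of the probes. Without centring stage 9 stood at -1.37 (adjusted p 0.115). Among mesodermal genes, sna was also lower on all 4 arrays of stage 9, at -0.91 (adjusted p 0.00111). The median of 6 mesodermal genes there was -0.37, with no other passing. Of the other lists below, 5 of 7 midline genes (median -0.92) and 5 of 9 blood cell genes (median -0.69) passed as lower at stage 9. Of 13 maternal genes, 6 passed as higher, and 9.37% of all probes passed in either direction. The part of these lists in the htl ratio was not tested.

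From stage 12 to stage 15 all 17 arrays of htl were higher, from 0.02 to 1.62. At stage 16 they gave 0.15, 0.41, -0.09 and 0.35. The mean of stages 9 to 12 was -0.38 ± 0.11 (adjusted p 0.0115), where 23.0% of all probes passed, and that of stages 13 to 16 was 0.35 ± 0.11 (1.28-fold, adjusted p 0.0417). The early call was lost without centring (-0.30, adjusted p 0.48), with zeros kept (adjusted p 0.0612), with the replicate block (adjusted p 0.126) and with the maternal covariate (-0.59, adjusted p 0.105). The late call was lost on leaving out any one of 9 of the 17 late arrays (highest adjusted p 0.151), without centring (adjusted p 0.685), with zeros kept (adjusted p 0.131), with probes of any missingness tested (adjusted p 0.0514), with the block (adjusted p 0.213), with the maternal covariate (0.18, adjusted p 0.708) and with late arrays alone (adjusted p 0.0601). The late-minus-early difference of 0.73 ± 0.16 passed (adjusted p 0.00907) and kept its call with any one of 32 arrays left out, from 0.64 to 0.78. It lost it without centring (0.64, adjusted p 0.95) and with zeros kept (adjusted p 0.0812). The GOF average, -0.01 ± 0.08, averaged these opposite stages. In the mutants htl stayed near the wild type level, with an average of -0.04 ± 0.09 (adjusted p 0.831, 95% interval -0.22 to 0.15) and stages between -0.27 and 0.36. At LOF stage 12 the estimate was 0.36 with the doubtful array, whose value was 1.47, and 0.01 without it.

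The difference between the experiments was itself tested over the 6 stages they share. Gs2 differed by 0.59 ± 0.14 (adjusted p 0.00126) and moody by 0.62 ± 0.16 (adjusted p 0.00373), both higher in the GOF than in the LOF, where 17.4% of all probes passed. Without centring, 132 probes passed as higher and 332 as lower, in place of 1453 and 855, and neither gene passed. With the replicate block neither passed either (adjusted p 0.0629 and 0.18). Without the doubtful array the differences were 0.61 (adjusted p 6.72e-04) and 0.63 (adjusted p 0.00337). wrapper, Mdr65 and htl differed by 0.46, 0.36 and 0.09, with adjusted p-values of 0.254, 0.655 and 0.697. Over stages 13, 14 and 16, where 9.16% of all probes passed, alrm and moody did, and the late difference of moody was 0.87 ± 0.22 (1.83-fold, adjusted p 0.00858). That of Gs2 was 0.14 ± 0.19 (adjusted p 0.737). The late difference of moody was 0.31 without centring (adjusted p 0.585), 0.77 with zeros kept (adjusted p 0.0623), 0.82 with the block (adjusted p 0.113) and 0.84 with late arrays alone (adjusted p 0.0538).

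**Figure D4:**
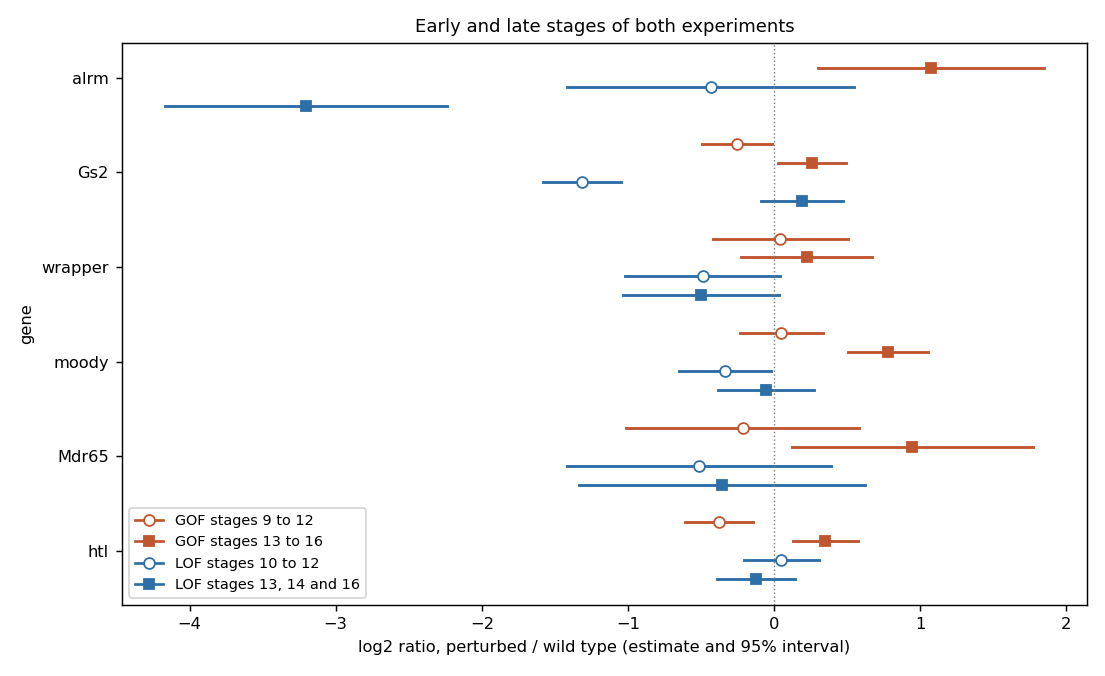
Estimate and 95% interval of the log2 ratio of perturbed over wild type embryos (horizontal axis) for each gene (vertical axis), in the early (open circles) and late (filled squares) stages of the gain of function (GOF) and loss of function (LOF). The late loss-of-function value of alrm (-3.20) and the early one of Gs2 (-1.31) stand farthest from 0, and the early gain-of-function value of alrm was not tested.

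Other genes of the same processes, taken from lists, did not all go the way of these genes. Beside every list count of an average below, 14.1% of all tested probes passed as higher and 13.6% as lower in the GOF. In the LOF average these shares were 13.9% and 13.8%. Several list counts lay near them. Among 5 tested genes of transmitter handling, Gdh (glutamate dehydrogenase) rose to 1.20 ± 0.10 in the GOF and Gs1 (the mitochondrial glutamine synthetase) to 0.38 ± 0.13, with adjusted p-values of 1.03e-13 and 0.0258. Inx2, an innexin, fell to -0.28 ± 0.07 (adjusted p 9.99e-04). In the LOF 2 of 7 tested genes passed, both higher: Gdh at 0.92 ± 0.11 (adjusted p 1.14e-08) and gb, a transporter gene (genderblind), at 0.40 ± 0.12 (adjusted p 0.00773). Gdh was thus higher in both experiments, as was the maternal list. Without centring 1 of the 5 rose and 0 fell in the GOF. The medians of the list, 0.17 in the GOF and 0.37 in the LOF, compare with -0.01 and 0.00 for all probes.

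Of 10 tested genes of the surface barrier and of Moody signalling, 4 rose and 3 fell in the GOF, with a list median of -0.23. The risers included Galphai, a G protein subunit, at 0.44 ± 0.07 (adjusted p 1.29e-06) and the transporter MRP at 0.24 ± 0.06 (adjusted p 0.00288). Outside the naming rule and named after their values were seen, loco, a glial RGS protein, rose to 0.30 and Galphao to 0.60. The 3 that fell encode septate junction proteins: nrv2 at -0.59 ± 0.07 (adjusted p 1.41e-08), and Gli and Nrx-IV, also named after their values were seen, at -0.35 and -0.45. Without centring 2 rose and 2 fell in the GOF, and with the arrays scaled to one spread 4 rose and 5 fell. In the LOF 2 of 11 rose and 6 fell, with a median of -0.46. Tret1-1, a trehalose transporter, fell to -1.07 ± 0.18 (lower on 22 of 25 arrays, adjusted p 6.51e-06) and nrv2 to -0.46 ± 0.09 (adjusted p 4.63e-05), while MRP rose to 0.49 ± 0.07 (adjusted p 1.06e-06). Without centring, 2 of the 11 rose and 1 fell. loco, at -0.30 in the LOF (adjusted p 6.82e-04), went the opposite way to its GOF value. Gli and Nrx-IV fell in both experiments, as nrv2 did, each at -0.50 in the LOF (adjusted p 1.88e-05 and 3.8e-05). Galphao stood at 0.07 in the LOF (adjusted p 0.851).

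Of 9 tested genes of the FGF pathway, 1 rose and 3 fell in the GOF (1 and 2 without centring). csw, a tyrosine phosphatase, was higher on all 33 arrays at 1.00 ± 0.08 (adjusted p 2.42e-14). The other FGF receptor, btl, fell to -0.54 ± 0.12 (adjusted p 4.35e-04), and the Ras pathway members Sos and Dsor1 fell to -0.38 ± 0.06 and -0.46 ± 0.07. The htl ligands ths and pyr, named outside the rule for their link to htl, stood at -0.13 and 0.00 and did not pass (adjusted p 0.0785 and 0.995). In the LOF 4 of 9 rose, with csw again the highest at 0.61 ± 0.09 (adjusted p 5.86e-07), and Dsor1 fell to -0.24 ± 0.08 (adjusted p 0.0184). Without centring 1 of the 9 rose and 0 fell in the LOF.

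Of 7 tested genes of the midline and its Egfr signalling, 6 fell and 0 rose in the GOF, with a median of -0.37. Without centring 3 of the 7 fell. comm, which controls axon crossing, fell to -0.55 ± 0.08, sli (the guidance cue slit) to -0.48 ± 0.06, aos (an Egfr inhibitor) to -0.46 ± 0.07 and spi (an Egfr ligand) to -0.37 ± 0.09, with adjusted p-values from 2.46e-08 to 0.0013. In the LOF 2 rose and 2 fell: sli rose to 0.40 ± 0.07 (adjusted p 2.17e-05) and spi fell to -0.69 ± 0.11 (adjusted p 1.6e-06). Without centring 1 rose and 1 fell. wrapper averaged 0.13 in the GOF (adjusted p 0.624) and -0.49 in the LOF. Its LOF sign was that of the 2 genes that fell, among them spi, and opposite to the 2 that rose, among them sli. The differences between the genes were not tested. Among 5 tested glial regulators, gcm, repo and retn rose in the GOF, with a median of 0.34, and in the LOF 1 rose and 2 fell (1 and 1 without centring), with a median of 0.01. Beside gcm, gcm2 fell to -0.59 ± 0.22 in the LOF (adjusted p 0.0372) and retn (dead ringer) stood at 0.69 ± 0.06 in the GOF and 0.37 ± 0.07 in the LOF. None of the list genes that passed changed sign when the arrays were not centred or were scaled to one spread.

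**Figure D5:**
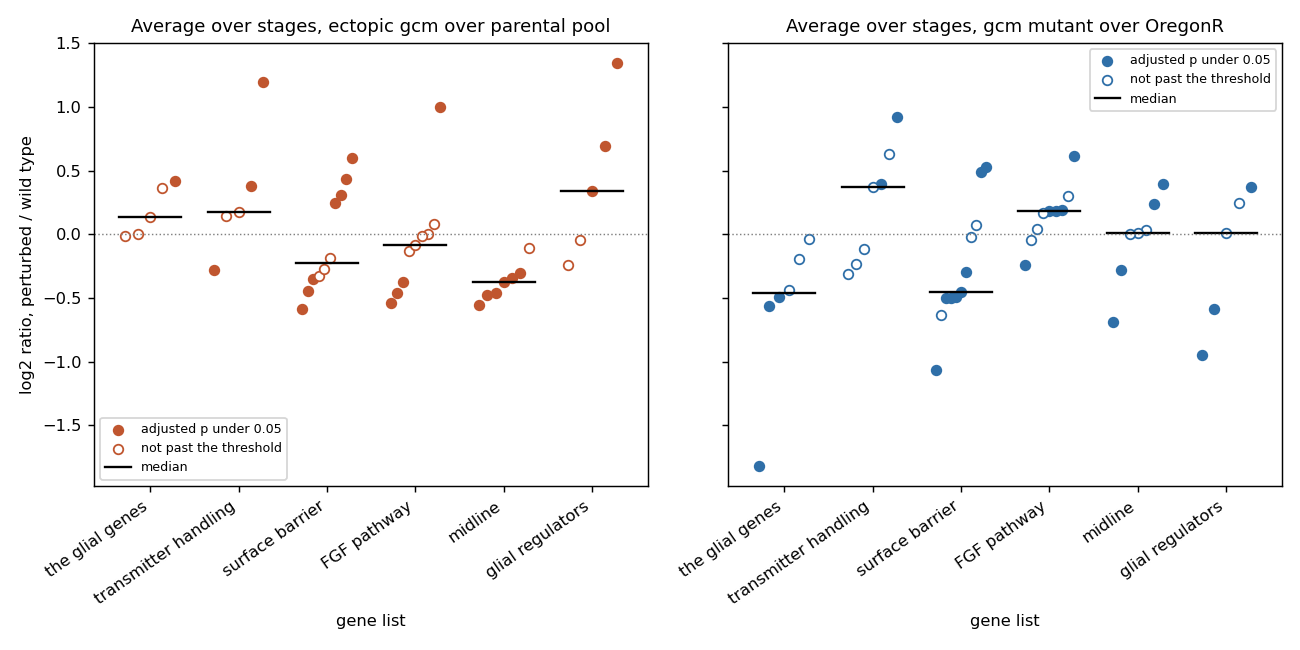
Average log2 ratio over stages (vertical axis) of each tested gene of the glial genes and of 5 gene lists (horizontal axis), in the gain of function (left) and the loss of function (right); filled points passed the adjusted p of 0.05, open points did not, and bars are medians. In the gain of function moody is the filled point of the glial genes and 6 of 7 midline genes are filled below 0, and in the loss of function alrm (-1.82) lies below all other points.

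Markers of other cell types moved as well. Of 7 neuronal genes, 3 fell in the GOF and 0 rose: nerfin-1 to -0.96 ± 0.10, elav to -0.66 ± 0.09 and fne to -0.57 ± 0.10. In the LOF 2 of 6 tested neuronal genes fell, nerfin-1 to -0.38 and fne to -0.31, and 0 of 6 did without centring. Of 6 mesodermal genes, sna fell to -0.40 ± 0.07 in the GOF (0 fell without centring), and sna and twi rose in the LOF, to 0.40 ± 0.08 and 0.22 ± 0.06. Of 9 blood cell genes, 5 fell in the LOF and 6 in the GOF (5 and 4 without centring), among them PPO2 at -2.23 ± 0.15 and NimC4 at -1.72 ± 0.11 in the LOF. These lists moved in the same embryos as alrm, Gs2 and moody, and their part in those results was not tested.

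The genes did not share one course. Over the 14 stage means of both experiments, the correlation between pairs of the 6 genes ran from -0.16 (htl with Mdr65) to 0.69 (moody with Gs2), and alrm and Gs2 stood at -0.08. wrapper and alrm correlated at 0.66. These are descriptions over stage means that share their arrays. Among 8040 genes measured in every group, the profiles nearest to alrm were those of CG33722 (Pearson r 0.91), naz (0.88) and Membrin (0.87). Those nearest to Gs2 were Fatp, a fatty acid transport protein (0.92), su(r), dihydropyrimidine dehydrogenase (0.92), and CG8003 (0.88). The nearest to wrapper were Cog6 (0.90), CG6583 (0.88) and Oda (0.86), to moody CG32407 (0.85), ais (0.84) and CG7289 (0.82), to Mdr65 Ctr1A (0.81), Pcd (0.75) and Ccdc58 (0.74), and to htl schlank (0.90), pelo (0.87) and ttm50 (0.86).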

How the data were processed

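Per the series design text, the authors scanned the 2-colour arrays with ScanArray 3.1, quantified them with GenePix 5.0 and kept arrays by the agreement of repeat spots. Each deposited value is the log2 of the Cy5 to Cy3 ratio of 1 spot; the base was read from the values. The sources used here do not give the background correction or any normalization. No intensities were used. All 58 value columns were used (0 others).

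Exact zeros and absolute log2 values from 9 up (fill values) were treated as missing. Both repeat spots were averaged, the array median was subtracted, and the sign was set by the dye labels so that the perturbed embryos are the numerator. Probes were named through the platform annotation, updated by Entrez identifiers to RefSeq. No coordinates or sequences are printed, since the sources used here give no build for the probes. For a gene with several probes, the one measured on most arrays was the main one.

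One linear model per probe, fitted to all 58 arrays in R 4.3.3 with limma 3.58.1 (squeezeVar), held 14 coefficients for experiment and stage and a dye term per experiment. Tests were two-sided, with Benjamini-Hochberg adjustment over all tested probes and 0.05 as the threshold. Testing a group required at least 3 arrays and both dye orientations with a value. Averages weight stages equally; early stages are 9 to 12 (GOF) or 10 to 12 (LOF), and late stages 13 to 16 or 13, 14 and 16. The late and early means alone, and the fits of arrays of stages 13 to 16 alone, were added after the data were seen. The model was tested on simulated data. The number of arrays limits the precision. The design text calls the repetitions independent experiments without saying what was independent, so p-values measure the spread between these arrays.

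The genes and lists were chosen with earlier results of these data known. All listed genes are named; from each list (transmitter handling, surface barrier, FGF pathway, midline, glial regulators, mesoderm, blood, neuron and maternal RNA) at most 4 genes with the smallest adjusted p in either average (exceptions are marked where they appear), and for each gene the 3 with the most similar stage profile. Alternatives covered centring, scaling, the dye term, spot quality, zeros, the filter on missing values, each experiment alone, array weights, a replicate block, the second Mdr65 probe, the maternal list as a covariate and each array left out.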

Additional observations from a re-analysis of the deposited data

Results flagged for a closer look

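In 5 of the 73 groups of 4 or 5 arrays that could be examined, 1 array lay far from the others of its stage; chance alone sets apart about 1 in 20 such groups. alrm read -5.17 on replicate 4 of GOF stage 10. moody read 2.53 on replicate 3 of GOF stage 13, the mean of 2 repeat spots at 4.79 and 0.26. The call at that stage rests on this array. Mdr65 read -0.58 on replicate 1 of GOF stage 12, where the other arrays lay at -1.73 or below. htl read 1.62 on replicate 2 of GOF stage 15 and -0.97 on replicate 2 of LOF stage 11.

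Some effects differed between the experiments or between early and late stages by a test of the difference itself. Gs2 and moody were higher in the GOF than in the LOF, by 0.59 (adjusted p 0.00126) and 0.62 (adjusted p 0.00373). In the GOF, moody and htl were higher late than early, by 0.73 for each gene (adjusted p 0.0436 and 0.00907). In the LOF, alrm was lower late than early, at -2.77 (adjusted p 0.00882), and Gs2 higher, at 1.51 (adjusted p 6.89e-07).

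In 3 cases every array of one experiment moved one way and every array of the other the opposite way. The mean of the GOF arrays exceeded that of the LOF arrays by 5.74 for alrm at stage 16, by 1.20 for wrapper at stage 16 and by 0.70 for moody at stage 14. These single-stage differences were not tested. The share of all probes with such a split was not counted, so the 3 cases are not read as particular to these genes.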

How the results depend on the processing

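No result for these genes that had passed the threshold changed direction under any alternative run. The LOF average of alrm and the LOF late-minus-early differences of alrm and Gs2 kept their calls under every alternative that could be fitted. The causes of the changes below were not tested, except that spot pairs with an SD under 0.333 left fewer genes to test (1 of the 6 in each average or difference).

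Without centring, the GOF average of moody was 0.45 (adjusted p 0.0516), the LOF averages of Gs2 and wrapper -0.41 and -0.37, the GOF late-minus-early differences of moody and htl 0.64 each, and the GOF minus LOF differences of Gs2 and moody 0.47 and 0.51; none of these passed. The median of all probes was then 0.64 in the LOF late-minus-early difference and 0.16 in the LOF average. The LOF average of wrapper also missed the threshold without the dye term (-0.53), with zeros kept (-0.40), with no filter on missing values (-0.49), with LOF arrays alone (-0.49, adjusted p 0.108), with the replicate block (-0.77) and with the maternal covariate (-0.89). The GOF late-minus-early difference missed it for moody with zeros kept (0.72), no filter (0.73) and the maternal covariate (0.71), and for htl with zeros kept (0.73). Leaving out 1 array at a time moved the LOF average of wrapper between -0.65 and -0.44, the GOF late-minus-early difference of moody between 0.61 and 0.79, and the calls of that difference over all probes between 128 and 250. With the maternal covariate the GOF average of moody was 0.51 (adjusted p 0.192).

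Across stages, arrays with the same replicate number did not on the whole deviate together from the fitted model. The median rho was 0.0049 in the GOF (single pairs from -0.39 to 0.35) and -0.04 in the LOF (from -0.33 to 0.21). The dye term had been fitted before, and a median over all pairs cannot tell whether the arrays of some stages were paired. With the replicate block the GOF average of moody was 0.31 (adjusted p 0.191) and the GOF minus LOF differences of Gs2 and moody were 0.64 and 0.54 (adjusted p 0.0629 and 0.18). The replicate numbers largely followed the dye orientation, so the block and the dye term fitted beside it are hard to tell apart. This limit holds for every call lost with the block.

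Genes that passed numbered 0 of 5 in the GOF average without centring, with the replicate block or with the maternal covariate, and 0 of 1 on spot pairs; 1 in the LOF average without centring or on spot pairs; 0 in the GOF late-minus-early difference without centring or with zeros kept, and 1 on spot pairs, without the filter or with the maternal covariate; 1 in the LOF late-minus-early difference on spot pairs; and 0 in GOF minus LOF without centring or with the block, and 1 on spot pairs. At an unadjusted p under 0.05, 1 of the 5 genes passed in the GOF average, 4 in the GOF late-minus-early difference and 2 in GOF minus LOF, where 35.5%, 12.4% and 28.5% of all probes did. Calls at GOF stages numbered 0 of 47 without centring, 0 of 24 with late arrays alone and 1 of 48 with zeros kept. They numbered 1 of 47 with the block or the maternal covariate, 5 of 47 with scaling or array weights and 8 of 25 on spot pairs. Calls at LOF stages numbered 3 of 36 without centring or with LOF arrays alone, 2 of 36 with the block and 8 of 18 on spot pairs. On spot pairs the share of all probes that passed was larger too: 2012 of 3183 in the GOF average and 1483 of 2116 in the LOF average. The shares over all probes at single stages under these alternatives are not given here.

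Over all probes, the GOF average had 1854 calls without centring, 2012 on spot pairs, 2145 with the block and 1245 with the maternal covariate, against 4104. The LOF average had 2105, 1483, 1879 and 2513 in the same order, against 4153. The GOF late-minus-early difference had 1 without centring, 434 with scaling, 648 on spot pairs, 67 with zeros kept, 401 with GOF arrays alone and 560 with array weights, against 201. The LOF one had 2654 without centring, 388 on spot pairs and 304 with LOF arrays alone, against 836. GOF minus LOF had 464, 958 and 771 without centring, on spot pairs and with the block, against 2308. The number of probes tested differed. On spot pairs 3183 were tested in the GOF comparisons, 2116 in the LOF ones and 1720 in GOF minus LOF. In the main fit these numbers were 14780, 15025 and 13264. The spot-pair counts are thus larger shares of the probes tested. With zeros kept, 23428 probes were tested in the GOF late-minus-early difference.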
